A study of Homo sapiens with 4 samples.

Results

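Scavenger receptors are a group of 8 genes here, CD36, CD68, CD163, MSR1, MRC1, OLR1, SCARB1 and SCARB2, chosen by name from 27800 gene symbols, and all 8 were present in the expression table. The RNA came from MOLM-13, a line of human acute myeloid leukaemia with a KMT2A-MLLT3 fusion and monocytic features. The 2 groups compared, EV and sgKAT6A, had 2 libraries each. All cells received lentivirus with CRISPR-Cas9, with a construct named EV in the control group and with a guide against KAT6A, a histone acetyltransferase gene, in the other. The number of guides, what EV holds, when cells were harvested and whether they were a pool or a clone is not given in the sources used here. Nor is it given whether replicates were separate cultures, so a p-value here reflects the spread of these 4 libraries, which may be technical. Levels are in TPM, a length-corrected share of the transcripts of a library scaled to a total of 1000000.

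Scavenger receptors are surface or lysosomal proteins that bind modified lipoproteins, lipids, sugars and debris and carry them into the cell. Monocytes and macrophages are rich in them, and several increase as a monocyte becomes a macrophage. They share a function rather than an ancestor. CD36, SCARB1 and SCARB2 belong to a single protein family, while CD68 resembles the lysosomal LAMP proteins, OLR1 and MRC1 carry C-type lectin folds, MSR1 is a collagen-like trimer and CD163 is built of cysteine-rich scavenger domains.

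The upstream sequences of CD68, CD36 and SCARB2 are shown because CD68 and CD36 varied more between libraries than SCARB2 did, with a highest library 2.06, 3.41 and 1.52 times the lowest in that order. They are the 250 bases before a RefSeq transcript start (GRCh38.p14), on the gene's strand. CD68 lies on chromosome 17, with the window at positions 7579388 to 7579637 on the plus strand. CD36 has 6 such starts, and the one with the lowest coordinate is printed, on chromosome 7 at positions 80601957 to 80602206, plus strand. The SCARB2 window is on chromosome 4 at positions 76213825 to 76214074, minus strand. By the GENCODE 29 positions given below, the CD68 window lies partly inside its gene, and the CD36 and SCARB2 windows lie wholly inside theirs. The expression table does not tell which start was used for any of these genes. Capitals mark matches, on either strand, to GAGGAA (the core bound by PU.1, the myeloid ETS factor), TGANTCA (the AP-1 element) or GGGCGG (the GC box). Matches that overlap run together.
CD68: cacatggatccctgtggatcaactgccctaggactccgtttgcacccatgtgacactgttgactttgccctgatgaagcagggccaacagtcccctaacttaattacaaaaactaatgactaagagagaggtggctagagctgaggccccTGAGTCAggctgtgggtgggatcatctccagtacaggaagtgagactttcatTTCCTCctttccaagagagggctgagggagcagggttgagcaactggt
CD36: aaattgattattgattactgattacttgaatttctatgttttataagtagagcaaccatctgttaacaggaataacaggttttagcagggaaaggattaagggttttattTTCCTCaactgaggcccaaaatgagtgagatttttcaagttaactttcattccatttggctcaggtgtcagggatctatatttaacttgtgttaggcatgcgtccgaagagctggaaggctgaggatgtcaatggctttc
SCARB2: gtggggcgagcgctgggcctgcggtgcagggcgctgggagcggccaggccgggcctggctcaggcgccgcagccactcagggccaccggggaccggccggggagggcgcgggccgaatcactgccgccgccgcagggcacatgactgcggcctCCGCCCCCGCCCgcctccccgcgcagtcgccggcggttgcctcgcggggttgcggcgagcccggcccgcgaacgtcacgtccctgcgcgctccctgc
GAGGAA was present in the CD68 window, with its first base at -48 from the start, and in 3 of the 6 CD36 windows, at -140 in the one printed. TGANTCA was present in the CD68 window at -100 and in 1 of the 6 CD36 windows, at -124, not the one printed. The SCARB2 window had neither and held GGGCGG at -97 and -91, with a GC content of 80.8%, against 51.6% for CD68 and 37.2% for CD36. Of 35114 RefSeq windows of this length, 23.6% held GAGGAA, 6.57% TGANTCA and 42.6% GGGCGG. These matches describe letters, not binding sites. CD163 also had a window, with GAGGAA at -182, and OLR1, SCARB1 and MRC1 were not matched in the table of promoters.

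The libraries themselves differed. Each had between 12082 and 12630 genes at 1 TPM or more. Protein-coding genes made up 81.2% and 81.6% of the TPM in EV replicates 1 and 2. In sgKAT6A replicates 1 and 2 this share was lower, at 77.9% and 78.1%. RNA18SN5, a symbol for 18S ribosomal RNA, ranged from 10401 to 13751 TPM over 3 libraries, and sgKAT6A replicate 2 had 340 TPM. KAT6A transcript measured 16.2 and 16.7 TPM in EV against 12.2 and 10.8 TPM in sgKAT6A, lower in both. So were 23.2% of all genes tested, and KAT6A did not pass the test used below (adjusted p = 0.784 by limma). Markers of the line were present, with CD33 at 99.2 to 115 TPM and SPI1, the gene of PU.1, at 334 to 519 TPM. Of the monocyte and macrophage markers, 8 of 8 had a mean of at least 1 TPM, though not in every library. FCGR3A was at 0.0254 and 0.923 TPM in EV and 0.410 and 5.25 TPM in sgKAT6A. FCN1 was at 0.243 and 16.5 TPM in EV and 0.473 and 32.1 TPM in sgKAT6A. Among markers of other lineages, CD2, MS4A1, PF4 and PPBP were at 0 TPM in every library. Not all were absent: the T cell marker CD3D was at 5.65 to 11.5 TPM, the keratins KRT18 and KRT8 at 5.99 to 7.12 and 2.74 to 3.57 TPM, and HBB, the beta chain of haemoglobin, at 38.6 to 192 TPM.

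The order of the levels was the same in every library at the top and at the bottom. CD68 was highest, SCARB1 was the second and CD36 the third. OLR1 and SCARB2 came next and changed places, with SCARB2 above OLR1 in both replicates numbered 1 and below it in both numbered 2. MSR1, CD163 and MRC1 were under 1 TPM throughout. The lowest CD68 value, 136 TPM, was above the highest SCARB1 value, 60.7 TPM. The ranges of SCARB1 and CD36 did not overlap over the 4 libraries but almost met, at 52.0 TPM for the lowest SCARB1 and 51.5 TPM for the highest CD36. CD36 and OLR1 overlapped, as did OLR1 and SCARB2. CD68 alone made up 62.3% to 66.4% of the TPM of the 8 genes, whose sum was 218 and 328 TPM in EV and 259 and 421 TPM in sgKAT6A.

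**Figure D1:**
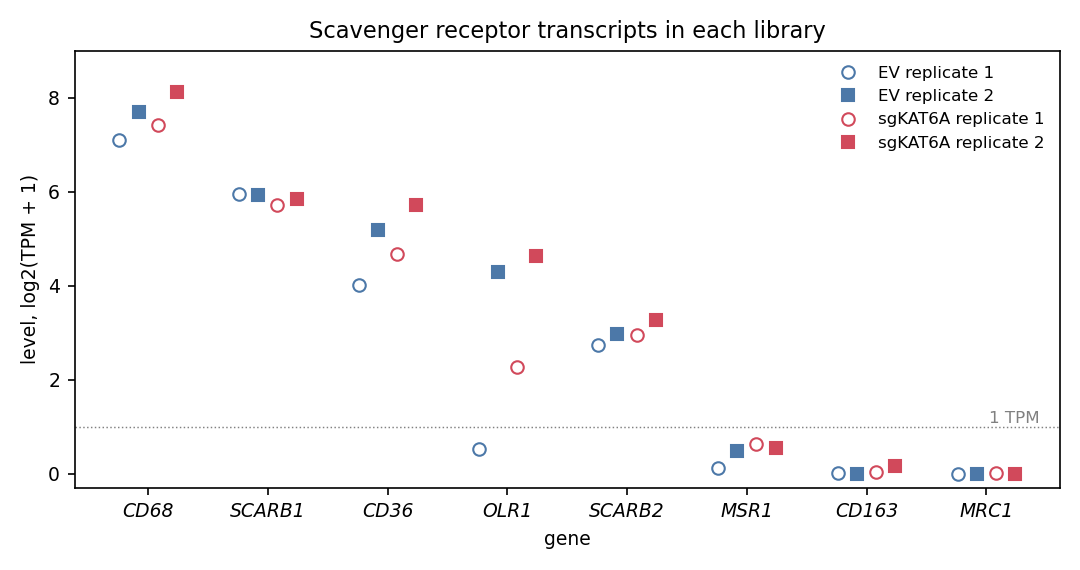
Level of each of the 8 scavenger receptor genes, as log2(TPM + 1), in each of the 4 libraries. Blue symbols are EV and red symbols sgKAT6A, open circles are replicate 1 and filled squares replicate 2, and the dotted line marks 1 TPM. CD68 is highest everywhere, and MSR1, CD163 and MRC1 lie under the line.

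Of the 8 genes, 5 had a mean of at least 1 TPM over the libraries and were tested: CD36, CD68, OLR1, SCARB1 and SCARB2. None passed the test between sgKAT6A and EV by limma (adjusted p from 0.784 to 0.86, threshold 0.05). CD36, CD68, OLR1 and SCARB2 had higher means in sgKAT6A with overlapping groups, and SCARB1 had a lower mean without overlap. By the same test 0% of the 12603 genes tested passed, and 3.64% had an unadjusted p under 0.05 (459 genes, against 630 expected by chance). None of the 5 receptors was among those 459. Both sgKAT6A libraries were above both EV libraries for 14.4% of all genes tested and for 0 of the 5 receptors, and below them for 23.2% of all genes and for 1 of the 5. After rescaling to protein-coding genes these shares were 19.5% (1 of the 5, SCARB2) and 16.2% (1 of the 5, SCARB1). The median difference of the 5 receptors was 0.39 on the log2(TPM + 1) scale, beside -0.02 for all genes tested. The gaps between replicates were larger: the median over the 5 receptors was 0.60 between EV replicates 2 and 1 and 0.70 between sgKAT6A replicates 2 and 1. With 2 libraries a side, the smallest two-sided p of an exact permutation test is 0.333. TPM is a share of bulk RNA, so more cells with a transcript and more transcript per cell cannot be told apart.

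CD36, the fatty acid translocase that also takes up oxidised LDL and apoptotic cells, had 15.1 and 35.5 TPM in EV replicates 1 and 2 and 24.6 and 51.5 TPM in sgKAT6A replicates 1 and 2. The groups overlapped, because EV replicate 2 was above sgKAT6A replicate 1. The EV mean was 25.3 ± 14.4 TPM and the sgKAT6A mean 38.1 ± 19.1 TPM (SD, n = 2 each). On the log2 scale the difference came to 0.60 ± 0.57 (SE), with a 95% interval of -0.98 to 2.18 and an adjusted p of 0.795 by limma. CD36 was the most variable of the receptors above 10 TPM in every library, with the 2 replicates differing 2.35-fold in EV and 2.10-fold in sgKAT6A. Between libraries of the same number, sgKAT6A was 1.63 times EV for number 1 and 1.45 times for number 2. Without EV replicate 1 the log2 difference was 0.0060, without sgKAT6A replicate 2 it was 0.078, without sgKAT6A replicate 1 it was 1.12 and without EV replicate 2 it was 1.19. CD36 (ENSG00000135218.18) lies on chromosome 7 at positions 80369575 to 80679277, plus strand, in GENCODE 29 on GRCh38. GNAT3, which overlaps it on the opposite strand, was at 0 TPM in every library.

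SCARB1, or SR-BI, is the HDL receptor, which takes cholesteryl esters from HDL without engulfing the particle. It had 60.7 and 60.4 TPM in EV and 52.0 and 56.9 TPM in sgKAT6A. Both sgKAT6A libraries were below both EV libraries, a pattern shared with 23.2% of all genes tested. The EV mean was 60.5 ± 0.204 TPM and the sgKAT6A mean 54.4 ± 3.47 TPM (SD, n = 2 each), 0.899 times the EV level. On the log2 scale the difference came to -0.15 ± 0.12 (SE), with a 95% interval of -0.48 to 0.17 and an adjusted p of 0.784 by limma. After quantile normalization the groups overlapped and the difference was -0.09. It was also -0.09 after rescaling to protein-coding genes, where the groups did not overlap. With 1 library left out it lay between -0.22, without sgKAT6A replicate 2, and -0.09, when sgKAT6A replicate 1 was dropped. SCARB1 was the steadiest of the 5 receptors, with its highest library 1.17 times its lowest. It exceeded CD36, its relative, by 4.02-fold and 1.70-fold in EV replicates 1 and 2 and by 2.11-fold and 1.10-fold in sgKAT6A replicates 1 and 2. SCARB1 (ENSG00000073060.15) lies on chromosome 12 at positions 124776856 to 124882668, minus strand.

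SCARB2, or LIMP-2, the lysosomal member of the family, is a protein of the lysosomal membrane. It had 5.72 and 6.89 TPM in EV and 6.75 and 8.71 TPM in sgKAT6A. The groups overlapped narrowly, with EV replicate 2 just above sgKAT6A replicate 1. The EV mean was 6.31 ± 0.824 TPM and the sgKAT6A mean 7.73 ± 1.39 TPM (SD, n = 2 each), 1.23 times the EV level. On the log2 scale the difference came to 0.25 ± 0.19 (SE), with a 95% interval of -0.28 to 0.78 and an adjusted p of 0.784 by limma. It was 0.09 without sgKAT6A replicate 2, 0.14 without EV replicate 1 and 0.42 when sgKAT6A replicate 1 was dropped. The overlap depended on the scaling: with median-of-ratios scaling, quantile normalization or rescaling to protein-coding genes, both sgKAT6A libraries were above both EV libraries. The same held for 15.9%, 15.3% and 19.5% of all genes tested under those scalings, in that order. SCARB2 (ENSG00000138760.9) lies on chromosome 4 at positions 76158733 to 76234536, minus strand. It is overlapped on the opposite strand by FAM47E (0.211 to 0.875 TPM), and the strandedness of the counting is not given in the sources used here.

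CD68, or macrosialin, is a heavily glycosylated protein of late endosomes and lysosomes and a standard macrophage stain. It had 136 and 206 TPM in EV and 171 and 279 TPM in sgKAT6A. The groups overlapped in the same way as for CD36, with EV replicate 2 between the 2 sgKAT6A libraries. At least 97.4% of all 27800 symbols were lower than CD68 in every library. The EV mean was 171 ± 49.99 TPM and the sgKAT6A mean 225 ± 76.3 TPM (SD, n = 2 each), 1.32 times the EV level. On the log2 scale the difference came to 0.39 ± 0.34 (SE), with a 95% interval of -0.57 to 1.34 and an adjusted p of 0.792 by limma. It shrank to 0.035 without sgKAT6A replicate 2 and to 0.085 without EV replicate 1. It grew to 0.69 when EV replicate 2 was dropped and to 0.74 when sgKAT6A replicate 1 was dropped. CD68 (ENSG00000129226.13) lies on chromosome 17 at positions 7579467 to 7582113, plus strand.

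OLR1, or LOX-1, is a C-type lectin that binds oxidised LDL. It had 0.446 and 18.5 TPM in EV replicates 1 and 2 and 3.84 and 23.7 TPM in sgKAT6A replicates 1 and 2. The 2 libraries numbered 2 were high and the 2 numbered 1 were low, in both groups, and the groups overlapped. The replicates differed 41.5-fold in EV and 6.18-fold in sgKAT6A, the widest gaps of the 5 receptors. Between the groups the log2 difference came to 1.04 ± 1.57 (SE), with a 95% interval of -3.34 to 5.42 and an adjusted p of 0.86 by limma. Its direction rested on single libraries: it was -0.84 without EV replicate 1, -0.13 without sgKAT6A replicate 2, 2.22 without sgKAT6A replicate 1 and 2.92 without EV replicate 2. With a pseudocount of 0.1 it was 1.60 and with 5 it was 0.49. OLR1 (ENSG00000173391.8) lies on chromosome 12 at positions 10158301 to 10172138, minus strand. TMEM52B overlaps it on the opposite strand and had 0.439 and 2.41 TPM in EV and 0.843 and 2.23 TPM in sgKAT6A.

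**Figure D2:**
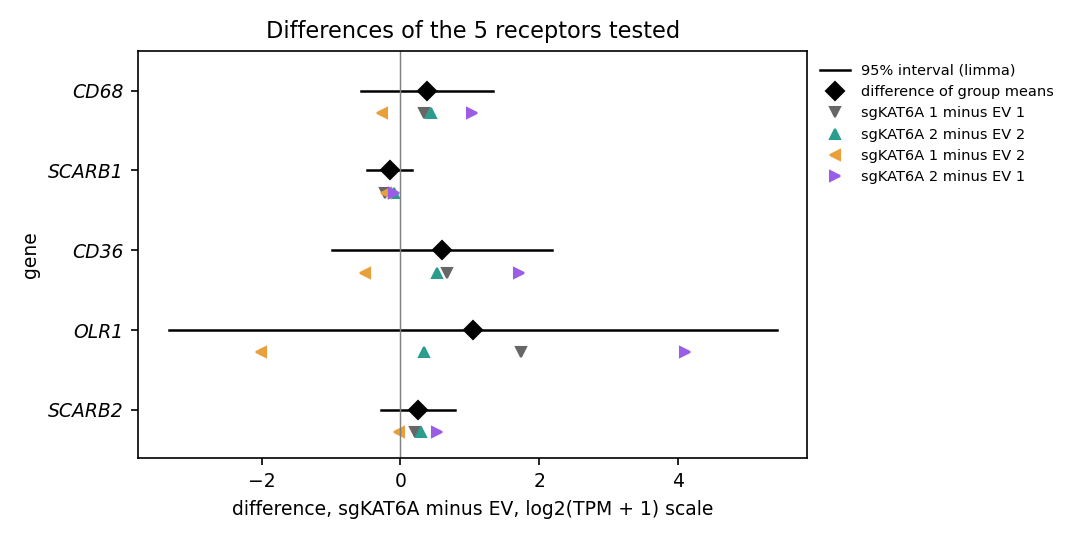
Difference between sgKAT6A and EV for the 5 receptors tested, on the log2(TPM + 1) scale. Black diamonds and bars are the difference of group means with its 95% interval by limma, and coloured triangles are the 4 differences between single libraries. All 5 intervals include 0, and all 4 triangles lie on one side of 0 only for SCARB1.

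The 3 receptors under the filter got no test. MSR1, the class A receptor for modified LDL (ENSG00000038945.14), had 0.0887 and 0.389 TPM in EV and 0.555 and 0.471 TPM in sgKAT6A. CD163, the receptor for haemoglobin bound to haptoglobin (ENSG00000177575.12), had 0.0124 and 0 TPM in EV and 0.0271 and 0.121 TPM in sgKAT6A. For both, the sgKAT6A values were above the EV values in all 4 pairs of libraries, at levels where the number of reads is unknown because TPM keeps no depth. The same held for 14.4% of all genes tested, a share that leaves out genes as low as these. MRC1, the mannose receptor (ENSG00000260314.2), was at 0 TPM in 3 libraries and at 0.0106 TPM in sgKAT6A replicate 1. With no filter on low values, the adjusted p by limma was 0.838 for MSR1, 0.838 for CD163 and 0.955 for MRC1. These 3 genes, used as markers of tissue or alternatively activated macrophages, were thus at most 0.555 TPM in any library.

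Of the 5 receptors tested, 4 (CD36, CD68, OLR1 and SCARB2) were higher in replicate 2 than in replicate 1 in both groups, beside 38.0% of all genes tested. SCARB1 was not: its EV libraries differed by 0.01 and its sgKAT6A libraries by 0.13 on the log2(TPM + 1) scale. Of the 8 markers of monocytes and macrophages, 6 were higher in replicate 2 in both groups. VCAN went the other way in both, with 18.2 and 15.8 TPM in EV replicates 1 and 2 and 26.8 and 16.2 TPM in sgKAT6A replicates 1 and 2. CSF1R, the macrophage growth factor receptor, had 10.2 and 31.8 TPM in EV replicates 1 and 2 against 22.0 and 63.0 TPM in sgKAT6A replicates 1 and 2. ITGAM, the gene of the integrin CD11b, had 3.74 and 21.5 TPM against 12.3 and 52.1 TPM in the same order. LYZ, encoding lysozyme, made up most of the summed level of the 8 markers and did not follow the replicate number in sgKAT6A, at 10975 TPM in replicate 1 and 9500 TPM in replicate 2. That sum was 7099 and 8206 TPM in EV and 11056 and 9766 TPM in sgKAT6A, and no marker of the list was at 0 in all libraries. The part of these markers, or of whatever separates the replicate numbers, in the receptor values was not tested.

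**Figure D3:**
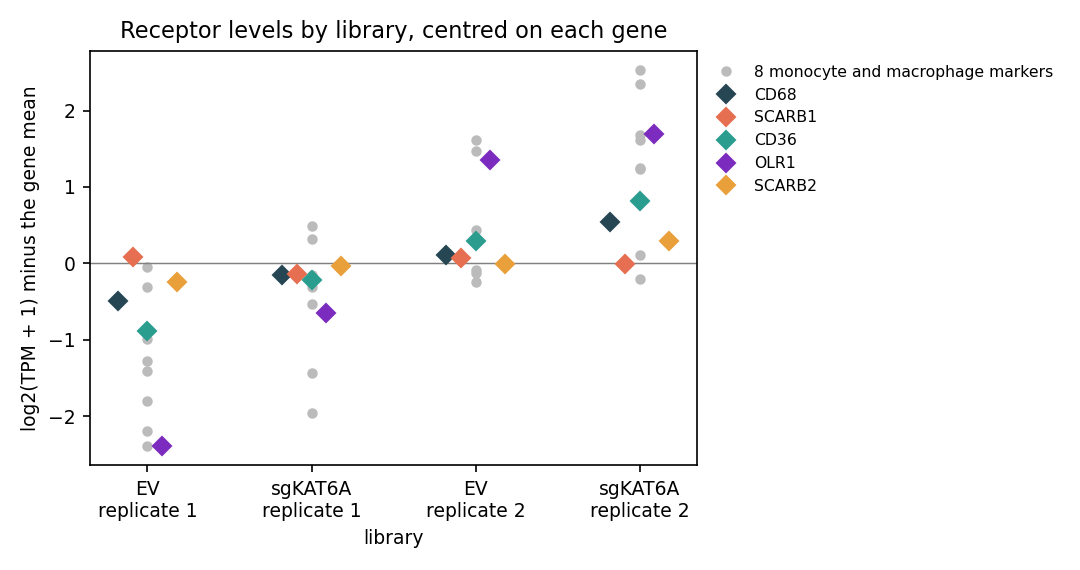
Level of the 5 receptors tested in each library as log2(TPM + 1) minus the gene's own mean over the 4 libraries, with 8 monocyte and macrophage markers in grey. Libraries are ordered by replicate number. Among the 5 receptors, OLR1 spans the widest range, from its lowest point in EV replicate 1, and SCARB1 stays close to 0. Some markers, such as CD14 and FCN1, span a wider range than OLR1.

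The protein-coding genes most like each receptor were found by the distance between centred log2(TPM + 1) profiles over the 4 libraries, among 8510 genes that averaged at least 5 TPM. With 4 libraries such a likeness is loose, and it is given as a description. The profiles were not scaled, so the distance also depends on how much each gene varied. A gene that varied little thus has more genes near it, whatever the shape of its profile. For CD36 the nearest were CLDN7 (3.90 and 9.71 TPM in EV, 6.64 and 14.8 TPM in sgKAT6A), CTSD and LPAR6. CTSD, the lysosomal protease cathepsin D, had 226 and 486 TPM in EV and 357 and 696 TPM in sgKAT6A. For CD68 they were CTDSP2, TCIRG1 and KLHL6. TCIRG1, a subunit of the proton pump of lysosomes and osteoclasts, had 78.5 and 116 TPM in EV and 97.3 and 159 TPM in sgKAT6A. OLR1 had no close neighbour, with 0 genes within a distance of 0.3, against 89 for CD36, 465 for CD68, 1716 for SCARB2 and 3552 for SCARB1. Its nearest was FPR1, the formyl peptide receptor of phagocytes, at a distance of 0.53 (0.638 and 21.1 TPM in EV, 2.79 and 30.5 TPM in sgKAT6A), followed by SGK1 and HLA-DMB. SF3A2 and MAD2L1BP were among the 3 closest to SCARB1, and SCARB2 was closest to WASF2, C19orf54 and SEZ6L2. Among the receptors themselves, by this unscaled distance, CD68 and SCARB2 were the closest pair (0.40) and OLR1 and SCARB1 the farthest (3.31).

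Genes around the receptors were read from 6 further lists, with 59 genes tested. None passed by limma, and 0 of the 59 had an unadjusted p under 0.05. Of them 12 were higher and 1 was lower in sgKAT6A without overlap of the groups, 20.3% and 1.69%, beside 14.4% and 23.2% of all genes tested. After rescaling to protein-coding genes, which turned the balance of all genes to 19.5% higher and 16.2% lower, 18 of 60 were higher and 1 was lower. Their difference was positive for 50 of 59 (84.7%), beside 47.4% of all genes tested. Their median was 0.23, beside -0.02 for all genes. The lists were chosen with earlier results of these data known, so these shares are a description only.

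Of 22 other scavenger receptors, 9 were tested, all with overlapping groups, and the median difference was 0.21. MARCO, the class A receptor of resident macrophages, had 7.28 and 12.6 TPM in EV and 10.5 and 15.4 TPM in sgKAT6A, well above its relative MSR1. LRP1, the large endocytic receptor of the LDL receptor family, had 0.450 and 3.81 TPM in EV and 2.12 and 7.27 TPM in sgKAT6A. CD209, the lectin DC-SIGN, had 0.209 and 4.86 TPM in EV and 1.22 and 8.80 TPM in sgKAT6A. CXCL16, a chemokine that binds oxidised lipids in its membrane form, had 0.305 and 4.96 TPM in EV and 1.19 and 8.90 TPM in sgKAT6A. As for OLR1, the replicates numbered 2 were the high ones in both groups.

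Of 22 genes of lipid uptake and lipid sensing, 16 were tested, with a median of 0.28. Without overlap 4 were higher (CES1, RXRA, SOAT1 and NR1H2) and 0 lower, beside 14.4% and 23.2% of all genes tested. CES1, a carboxylesterase that hydrolyses cholesteryl esters and triglycerides, had 360 and 416 TPM in EV and 490 and 479 TPM in sgKAT6A (adjusted p = 0.784 by limma). RXRA, the partner of PPARG and of the LXR receptors, had 24.3 and 32.4 TPM in EV and 33.5 and 41.5 TPM in sgKAT6A. LIPA, the lysosomal acid lipase, had 60.1 and 87.2 TPM in EV and 87.1 and 120 TPM in sgKAT6A, touching but overlapping. FABP5, a fatty acid binding protein, had the only negative difference, with 842 and 652 TPM in EV and 652 and 362 TPM in sgKAT6A. PPARG, a known activator of CD36 that is named for that role after its values were seen, had 5.09 and 8.80 TPM in EV and 7.38 and 11.8 TPM in sgKAT6A, overlapping as CD36 did.

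Efferocytosis genes, for the uptake of dying cells, were split, with a median of -0.04. Of 8 tested 2 were higher (ITGB5 and ITGAV) and 1 was lower (CALR) without overlap. Over all genes tested, 14.4% were higher and 23.2% lower without overlap. CALR, the chaperone and eat-me signal calreticulin, had 1065 and 1091 TPM in EV and 961 and 815 TPM in sgKAT6A. AXL, a receptor for apoptotic cells, had 1.17 and 7.54 TPM in EV and 3.55 and 9.82 TPM in sgKAT6A. In the haemoglobin and haem list, where CD163 acts, 8 were tested with a median of 0.34, and 1, HMOX1, was higher without overlap. HMOX1, haem oxygenase, had 11.1 and 35.9 TPM in EV and 46.7 and 39.8 TPM in sgKAT6A. BLVRB, a biliverdin reductase, had 33.9 and 67.4 TPM in EV and 65.6 and 140 TPM in sgKAT6A, again overlapping.

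Lysosomal membrane genes, the setting of CD68 and SCARB2, had 12 tested, 4 higher without overlap (CD63, NPC2, CTNS and TMEM106B), 0 lower, and a median of 0.22. The shares of all genes tested were 14.4% higher and 23.2% lower without overlap. CD63, a tetraspanin of late endosomes, had 269 and 314 TPM in EV and 348 and 384 TPM in sgKAT6A. NPC2, which passes cholesterol to NPC1 in the lysosome, had 81.8 and 110 TPM in EV and 112 and 189 TPM in sgKAT6A. The genes of alternative macrophage activation, with which MRC1 and CD163 are usually grouped, had 6 of 18 tested and a median of 0.34. STAT6, the factor that carries the IL-4 signal, was the one without overlap, and had 72.3 and 83.3 TPM in EV and 91.8 and 89.9 TPM in sgKAT6A. IL4R, the receptor for that signal, overlapped, at 13.5 and 26.4 TPM in EV and 20.4 and 30.8 TPM in sgKAT6A, and CCL18 and LYVE1 were at 0 TPM in every library.

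**Figure D4:**
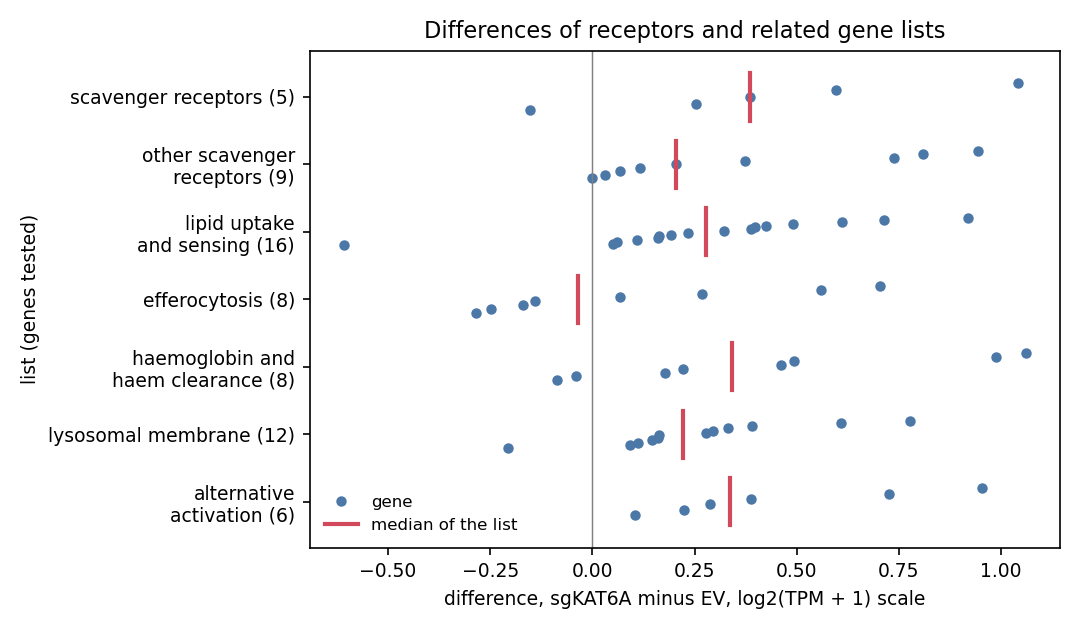
Difference between sgKAT6A and EV, on the log2(TPM + 1) scale, for each gene tested in the scavenger receptor group and in 6 related lists, with the number of genes tested in parentheses. Red bars are list medians, from -0.04 for efferocytosis to 0.39 for the scavenger receptors. None of these genes passed the test.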

How the data were processed

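Total RNA of MOLM-13 cells was sequenced in 2 EV and 2 sgKAT6A libraries, grouped and numbered by their titles. The authors deposited a table of TPM per gene symbol, for which the submitters' processing notes name Salmon and hg38. The version, annotation and step from transcripts to genes is not given in the sources used here. TPM keeps no read depth, so no counting interval was computed, and a share shifts when abundant RNAs shift.

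Values were used as log2(TPM + 1), a scale that understates the change of low genes. The 12603 genes that averaged at least 1 TPM were fitted in limma 3.58.1 (R 4.3.3) with a mean-variance trend. Tests were two-sided, with Benjamini-Hochberg adjustment over all genes tested and a threshold of 0.05. The test was checked on simulated data, where recovery of changes past the threshold was required only at a replicate spread far smaller than that of these libraries. How often it would find a change at their own spread is not given here. The receptors and lists were chosen with earlier results of these data known. Named genes were the 8 receptors, KAT6A, the 3 nearest protein-coding profiles per receptor tested, and up to 4 genes per list with the smallest unadjusted p. A few genes that this rule or the lists take are not reported here. Other list genes without overlap were named after their values were seen. Gene classes were matched by symbol in RefSeq (12364 of 12603), promoters are from RefSeq (4 receptors printed or described) and positions from GENCODE 29. Alternatives covered the pseudocount, filter, scaling, variance trend, each library left out and a replicate block. Figures were drawn with matplotlib 3.10.9.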

Additional observations from a re-analysis of the deposited data

How the results depend on the processing

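Over 13 alternatives, the 5 receptors tested kept the direction of their difference in 63 of 65 values. The changes of filter, the variance trend and the replicate block leave a receptor's difference as it is, so their values could not change direction. Values near 0 also count as kept, such as 0.0060 for CD36 without EV replicate 1. No receptor passed the threshold in an alternative that kept all libraries (smallest adjusted p 0.175 by limma). Both exceptions were of OLR1, which ran from -0.84 without EV replicate 1 to 2.92 without EV replicate 2 and stood at -0.13 without sgKAT6A replicate 2. The median of the 5 receptors, 0.39, ran from 0.0060 without EV replicate 1 to 0.74 without sgKAT6A replicate 1, and was 0.28 over all 8 receptors with no filter. The median of all genes tested stayed between -0.07 and 0.03. No gene passed by limma in the values as reported, and the count stayed at 0 under every alternative except the replicate block, and without each library in turn.

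With the replicate number as a block, which the labels do not describe as a pairing, 15 genes passed the threshold. Genes with an unadjusted p under 0.05 numbered 2417 with the block, 459 without it and 183 to 1258 with a library left out. No receptor passed with the block, with adjusted p from 0.175 for CD36 to 0.428 for SCARB1. Deviations of same-numbered libraries from their group means correlated across genes (r = 0.45, 12603 genes, which are not independent replicates). Read depth is unknown, so the precision of the receptors under 1 TPM could not be given.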

Other observations

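The genes next to the receptors on their chromosomes, in GENCODE 29, were looked up after the values had been seen. OLR1 lies in a cluster of C-type lectin genes. The nearest protein-coding gene at lower coordinates, CLEC7A, encodes the beta-glucan receptor dectin-1 and had 0.428 and 8.50 TPM in EV replicates 1 and 2 and 0.840 and 8.80 TPM in sgKAT6A replicates 1 and 2. The nearest at higher coordinates that does not overlap it, GABARAPL1, an autophagy gene, had 4.30 and 16.7 TPM in EV and 9.82 and 25.3 TPM in sgKAT6A. Both were thus high in the libraries where OLR1 was high, the replicates numbered 2. Of all genes tested, 38.0% were likewise higher in replicate 2 in both groups.

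CD68 lies 462 bases from EIF4A1, a translation initiation factor gene. EIF4A1 had 797 and 658 TPM in EV and 733 and 509 TPM in sgKAT6A, so within each group it was lower in the library where CD68 was higher. The neighbours of CD36, GNAI1 and SEMA3C, were under 0.1 TPM in every library, beside 15.1 to 51.5 TPM for CD36 itself.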
